A study of Arabidopsis thaliana with 6 samples.

Results

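SWEET proteins carry sugars across plant membranes without an energy source, so that sucrose or hexoses flow from the side where they are more concentrated. In *Arabidopsis* the family falls into clades: members of clades I and II mainly move glucose and other hexoses, members of clade III mainly export sucrose from cells, and members of clade IV sit in the vacuolar membrane. Sugar that leaves the cells of a leaf through clade III proteins is then taken up into the phloem by sucrose symporters, and several pathogens are known to draw on SWEET genes of their hosts for food. The *SWEET* genes described here are those of a fixed list of 10, namely *SWEET1*, *SWEET2*, *SWEET4*, *SWEET10*, *SWEET11*, *SWEET12*, *SWEET13*, *SWEET15*, *SWEET16* and *SWEET17*, and a gene was counted as measured where a probe set of the array pairs with it alone. This gave 9 measured members, with 1 probe set each, among the 13356 genes that have a probe set of their own and the 22746 probe sets in all, and *SWEET12* was not analysed here. *SWEET15* appears in the annotation under its other name, *SAG29*. The remaining 7 genes of the family were measured as well and are used for comparison.

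Wild-type Col-0 seedlings grown for 14 days in shaken liquid medium were harvested whole after 30 min with the purified chitin tetramer (4mer, an oligomer of N-acetylglucosamine) at 100 µg/mL or with the same volume of water (mock). No mutant or transgene was involved. Each group had 3 independent biological replicates, and each replicate was RNA from many whole seedlings on 1 Affymetrix ATH1 array, a short-oligonucleotide chip that gives one fluorescence signal per probe set. The question put to these genes was whether the 4mer altered the machinery of sugar export within this time, since the study was concerned with genes of growth and carbon metabolism. Levels are given as multiples of the median signal of the same array, and differences as log2 fold changes of 4mer over mock from limma, whose p-values were adjusted by Benjamini-Hochberg over the whole array. An adjusted p under 0.05 counted as passing the test. In whole seedlings, fewer cells of a type and less RNA per cell cannot be told apart.

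The arrays carried one common scaling, with array medians between 197.9 and 211.6 signal units. Mock replicate 1 stood apart from the rest. Its log2 signals correlated with those of the other arrays at 0.947 to 0.957 over the 11373 brighter probe sets, whereas the other 10 pairs of arrays lay between 0.984 and 0.994. Of the markers listed for the tissue, the leaf gene *RCA* (Rubisco activase, 1 of 8 leaf markers measured) and the root gene *PYK10* (a beta-glucosidase of root endoplasmic reticulum bodies) both lay at percentile 99.7 or above among all probe sets in every array. Of the 8 root markers listed 2 were measured, *PYK10* and the root hair expansin gene *EXPA7*. The mean of *EXPA7* was 1.21 times the array median in mock and 1.30 in 4mer seedlings. None of the 5 phloem markers and none of the 4 seed markers was named among the probe sets, and 1 of 5 flower and pollen markers was, AT5G45880, with a mean of 0.0512 in mock and 0.101 in 4mer seedlings. The cells that carry the phloem-related SWEET genes were therefore not traced by other genes here.

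The measured SWEET genes differed widely in signal, with mean levels between percentiles 12.9 and 97.6 of all probe sets. *SWEET11*, a sucrose exporter of phloem parenchyma cells, had by far the brightest probe set of the family, with a mean of 22.6 times the array median over the 6 arrays and a place at percentile 97.0 to 97.9 of all probe sets. *SWEET1*, a plasma membrane glucose transporter of clade I, followed with a mean of 5.53 and a place at percentile 83.8 to 88.5. *SWEET17*, a fructose transporter of the vacuolar membrane, had a mean of 5.43. *SWEET16*, its relative in clade IV, had a mean of 2.86 and *SWEET2*, a clade I protein that lies in the vacuolar membrane of root cells, one of 1.93. These 5 probe sets were above the array median in every array.

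The other 4 members lay below the array median in every array. *SWEET4*, a hexose transporter of clade II found along the veins, had a mean signal of 0.465. *SWEET13*, a sucrose transporter of clade III, had a mean of 0.460, and *SWEET10*, a clade III gene expressed at the shoot apex around the floral transition, had one of 0.377. *SWEET13* and *SWEET10* are direct neighbors among the coding genes of their chromosome, and the *SWEET13* probe set was the brighter of the pair in all 6 arrays. *SWEET15*, which is named after its rise in senescing leaves and also feeds the developing seed, was the dimmest, with a mean of 0.0995 and a place at percentile 11.6 to 19.2. Signals of different probe sets also depend on how well each one binds its target, so this order is one of array signals and not of transcript amounts, and without detection calls the dim signals were not separated from background.

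**Figure D1:**
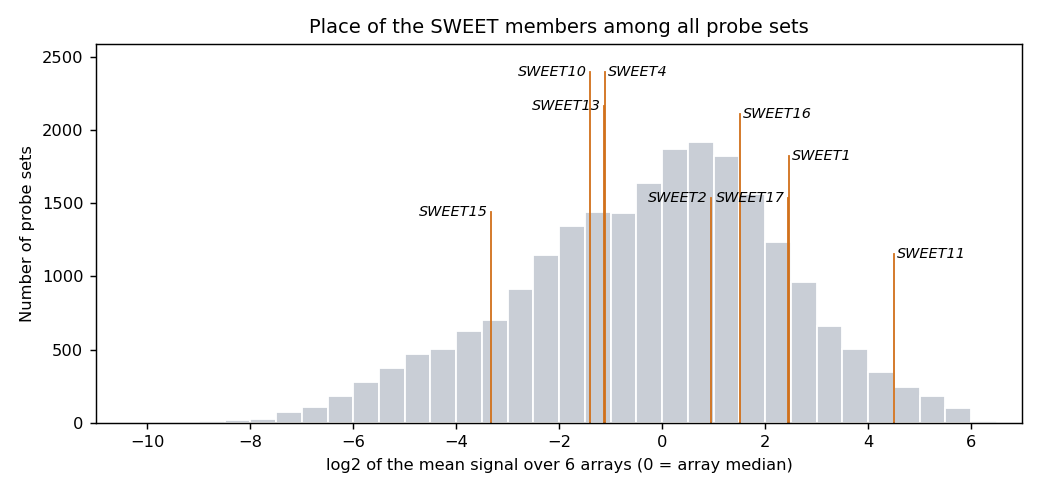
Number of probe sets (y axis) by log2 of the mean signal over the 6 arrays (x axis, 0 being the array median), with an orange line at each of the 9 measured SWEET members. *SWEET11*, at 22.6 times the array median, lies in the upper tail, and *SWEET15*, at 0.0995, in the lower one.

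The order of the members by signal was nearly the same in every array. *SWEET11*, *SWEET16*, *SWEET2* and *SWEET15* kept places 1, 4, 5 and 9 in all 6 arrays. *SWEET1* and *SWEET17* did not separate, since *SWEET1* was the brighter in 4 arrays and *SWEET17* in mock replicates 2 and 3, and their ranges overlapped. *SWEET4* and *SWEET13* did not separate either, with *SWEET4* the brighter in 3 of 6 arrays, and the range of *SWEET13* overlapped with that of *SWEET10*. The ranges of all other neighbors in the order were apart. Compared with the order by the mean, 5 of 9 members kept their place in mock replicate 3, the array with the fewest, and all 9 did in 4mer replicates 1 and 2.

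None of the SWEET genes passed the test of 4mer against mock. In limma 0 of 9 members had an adjusted p under 0.05, where 23 of all probe sets did (0.101%), and 0 of 9 had an unadjusted p under 0.05, where the share over all probe sets was 11.4%. This second count depended on the scaling, on how low values were treated and on mock replicate 1. *SWEET1* and *SWEET11* were under 0.05 unadjusted with quantile normalization (11.5% of all probe sets) and with no scaling between arrays (11.1%). With normalized values below 0.25 set to 0.25, 3 members were, *SWEET1*, *SWEET4* and *SWEET11* (11% of all). With an offset of 0.25 only *SWEET1* was (11.4%), and without mock replicate 1 only *SWEET11* (17.4%). With all 6 arrays, no member differed by 1.5-fold or more, a size reached by 11.9% of all probe sets. Among the 11373 brighter probe sets, which hold 5 of the members, 2.23% reached it. *SWEET15* alone reached it without mock replicate 1 (12.4% of all), without 4mer replicate 2 (13.1%) and without 4mer replicate 3 (13.2%). The members were higher in 8 of 9 cases, with a median log2 fold change of 0.19, against -0.014 over all probe sets, of which 10844 were higher and 11902 lower. In 3 members, *SWEET1*, *SWEET4* and *SWEET11*, every 4mer array lay above every mock array. Over all probe sets this held for 7.86%, and the opposite, every 4mer array below every mock array, held for 12.5% of all probe sets and for none of the members. With 3 arrays against 3, an exact two-sided permutation test cannot give a p under 0.10, and this was its value for each of these 3 genes.

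**Figure D2:**
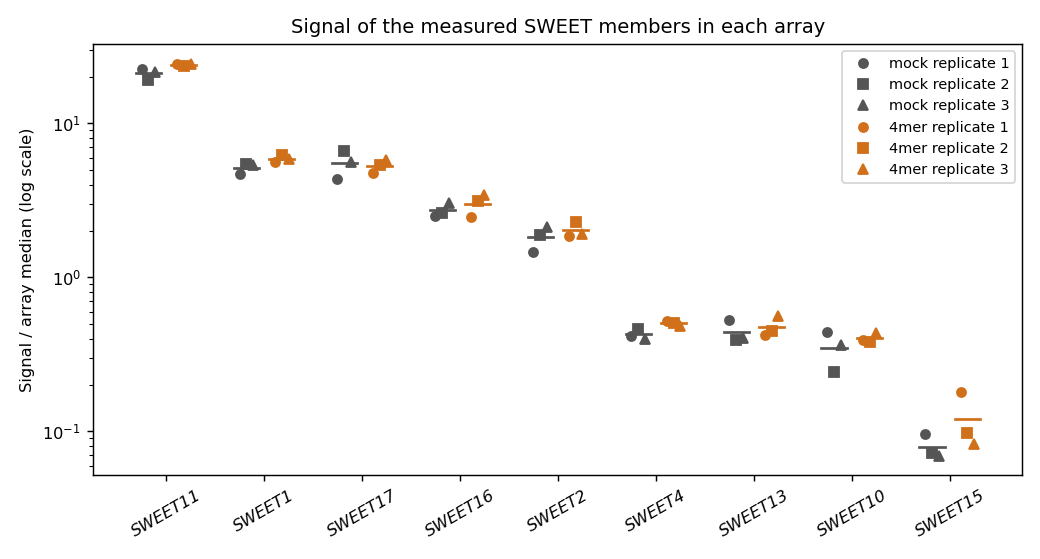
Signal over the array median (y axis, log scale) of the 9 measured SWEET members (x axis, in order of mean signal), with grey points for mock, orange points for 4mer, a symbol for each replicate and a bar at the mean of 3 arrays. The groups are apart in *SWEET11*, *SWEET1* and *SWEET4*, and *SWEET17*, *SWEET2* and *SWEET1* have their lowest point in mock replicate 1.

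Among the genes of sucrose export, *SWEET11* was at 22.6, 19.15 and 21.6 times the array median in mock replicates 1 to 3 and at 24.4, 23.6 and 24.2 in 4mer replicates 1 to 3. The 3 treated arrays lay close together, with a coefficient of variation of 1.80%, and all of them were above the brightest mock array. The difference was small, a log2 fold change of 0.19 (standard error 0.09, 95% interval -0.025 to 0.41, adjusted p = 0.482 from limma). On the linear scale the interval ran from 0.983-fold to 1.33-fold, so a rise of 1.5-fold lay outside it. Without mock replicate 1 the log2 fold change was 0.24 (95% interval 0.10 to 0.38, adjusted p = 0.106 from limma), and without mock replicate 2, the lowest array, it was 0.12.

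*SWEET13*, which transports sucrose and has also been linked to gibberellin transport, was at 0.527, 0.393 and 0.405 in the mock arrays and at 0.423, 0.450 and 0.561 in the 4mer arrays. The groups overlapped, with mock replicate 1 and 4mer replicate 3 the 2 brightest arrays. Its log2 fold change was 0.12 (95% interval -0.38 to 0.61, adjusted p = 0.873 from limma), and -0.0053 without 4mer replicate 3. Its neighbor *SWEET10* was at 0.443, 0.241 and 0.364 in mock and at 0.395, 0.383 and 0.438 in 4mer seedlings. Here the mock arrays spread widely and mock replicate 1 was above all treated arrays. *SWEET10* had a log2 fold change of 0.26 (95% interval -0.36 to 0.87, adjusted p = 0.749), which was 0.012 without mock replicate 2 and 0.45 without mock replicate 1.

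*SWEET15* was at 0.0960, 0.0725 and 0.0694 in mock and at 0.179, 0.0973 and 0.0828 in 4mer seedlings. One array, 4mer replicate 1, stood well above the other 5, and the lowest treated array was below mock replicate 1. Its log2 fold change of 0.53 was the largest among the members and had the widest interval (-0.47 to 1.52, adjusted p = 0.674 from limma). It was 0.19 without 4mer replicate 1, and no difference was left with normalized values below 0.25 set to 0.25, since *SWEET15* lies below that level in every array.

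Among the hexose transporters, *SWEET1* was at 4.69, 5.43 and 5.35 in the mock arrays and at 5.65, 6.24 and 5.84 in the 4mer arrays. The groups did not overlap, and the lowest treated array exceeded the brightest mock array, replicate 2, by a small step. For *SWEET1* the log2 fold change was 0.20 (standard error 0.09, 95% interval -0.0016 to 0.40, adjusted p = 0.443 from limma), the smallest p among the members. Without mock replicate 1, its lowest array, the log2 fold change was 0.13. *SWEET4* was at 0.415, 0.463 and 0.400 in mock and at 0.522, 0.509 and 0.481 in 4mer seedlings. Its replicates lay close together for so dim a probe set, with a coefficient of variation of 7.75% in mock and 4.14% in 4mer seedlings, and the groups were apart. Its log2 fold change was 0.24 (95% interval -0.17 to 0.65, adjusted p = 0.633), and it lay between 0.20 and 0.31 when any 1 array was left out. With quantile normalization the groups of *SWEET4* overlapped and those of *SWEET15* did not, while *SWEET1* and *SWEET11* stayed apart under each of the 3 scalings tried.

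The genes of the vacuolar membrane gave no common direction. *SWEET2*, whose protein holds sugar back in root cells and limits its loss to the soil, was at 1.46, 1.90 and 2.13 in mock and at 1.87, 2.30 and 1.92 in 4mer seedlings. Its lowest array was mock replicate 1, and the other mock arrays lay within the range of the treated ones. The fold change on the log2 scale was 0.16 (95% interval -0.20 to 0.52, adjusted p = 0.724 from limma) with all arrays and 0.0070 without mock replicate 1. *SWEET16* was at 2.50, 2.63 and 3.02 in mock and at 2.46, 3.12 and 3.42 in 4mer seedlings, and the lowest and the highest of its 6 values were both treated arrays. The log2 difference was 0.13 (95% interval -0.18 to 0.45, adjusted p = 0.742 from limma), and it was 0.031 without 4mer replicate 3 and 0.27 without 4mer replicate 1.

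*SWEET17* was the only member with a negative log2 fold change. It was at 4.33, 6.64 and 5.63 in mock and at 4.76, 5.38 and 5.82 in 4mer seedlings. The mock arrays held both the lowest and the highest of the 6 values, so the treated arrays lay inside the mock range. This gave a log2 fold change of -0.041 (95% interval -0.40 to 0.32, adjusted p = 0.945 from limma). It was -0.21 without mock replicate 1 (adjusted p = 0.343), 0.10 without mock replicate 2 and 0.037 without 4mer replicate 1, so its direction depended on single arrays.

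**Figure D3:**
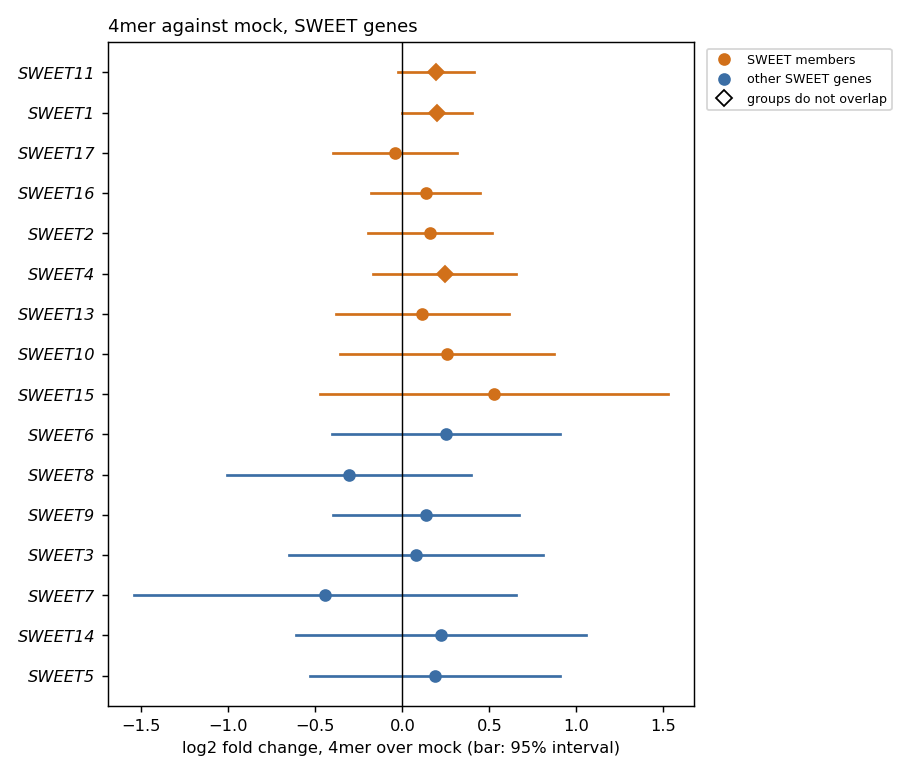
The log2 fold change of 4mer over mock (x axis) of the 9 SWEET members (orange) and the other 7 SWEET genes (blue), each with its 95% interval from limma as a bar, and a diamond where the groups do not overlap. Every bar holds 0, and the bars are widest for dim probe sets such as *SWEET15* (-0.47 to 1.52) and *SWEET7* (-1.54 to 0.65).

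The width of the intervals set how firmly a change could be bounded. For the 5 members above the array median, the upper end of the 95% interval lay between 1.24-fold for *SWEET17* and 1.43-fold for *SWEET2*. A rise of 1.5-fold was outside each interval with all 6 arrays. The lower end lay between 0.759-fold for *SWEET17* and 0.999-fold for *SWEET1*. Among these 5 members, only for *SWEET2* did excluding a 1.5-fold rise depend on the processing. Its upper end, 0.52 on the log2 scale, stayed below 1.5-fold with quantile normalization (0.54) or an offset of 0.25 (0.47). It exceeded 1.5-fold with values below 0.25 set to 0.25 (0.61), without the variance trend (0.60) and without scaling between arrays (0.59). With 1 array left out it ran from 0.26 (mock replicate 1) to 0.65 (4mer replicate 1). In most of these cases it exceeded 1.5-fold. For the 4 dim members the upper end lay between 1.53-fold for *SWEET13* and 2.88-fold for *SWEET15*, so that a rise of 1.5-fold lay inside the interval of each of them. For *SWEET4* and *SWEET13* this also depended on the processing. The log2 upper end of *SWEET4* was 0.65, but 0.495 without the variance trend and 0.43 with values below 0.25 set to 0.25. That of *SWEET13* was 0.61, but 0.53 with quantile normalization and 0.55 without the variance trend. These lower values are below 1.5-fold. With an offset of 0.25, where these 4 genes also had smaller fold changes, the upper ends lay between 0.38 and 0.49. The number of arrays limits all of these intervals.

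Mock replicate 1 moved the members in both directions. It lay below both other mock arrays in *SWEET1*, *SWEET2*, *SWEET16* and *SWEET17*, above both of them in *SWEET10*, *SWEET11*, *SWEET13* and *SWEET15*, and between them in *SWEET4*. The first 4 of these genes are 4 of the 5 brightest members. Their log2 fold changes were all lower without that array, and those of *SWEET10*, *SWEET11*, *SWEET13* and *SWEET15* were higher. The root hair gene *EXPA7* was lowest in that array as well, at 0.682 against 1.24 to 1.48 elsewhere, whereas *PYK10* was highest there, at 76.2 against 47.8 to 58.7, and the part of root tissue in the values of single genes was not tested. Leaving the array out brought no member past the threshold.

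**Figure D4:**
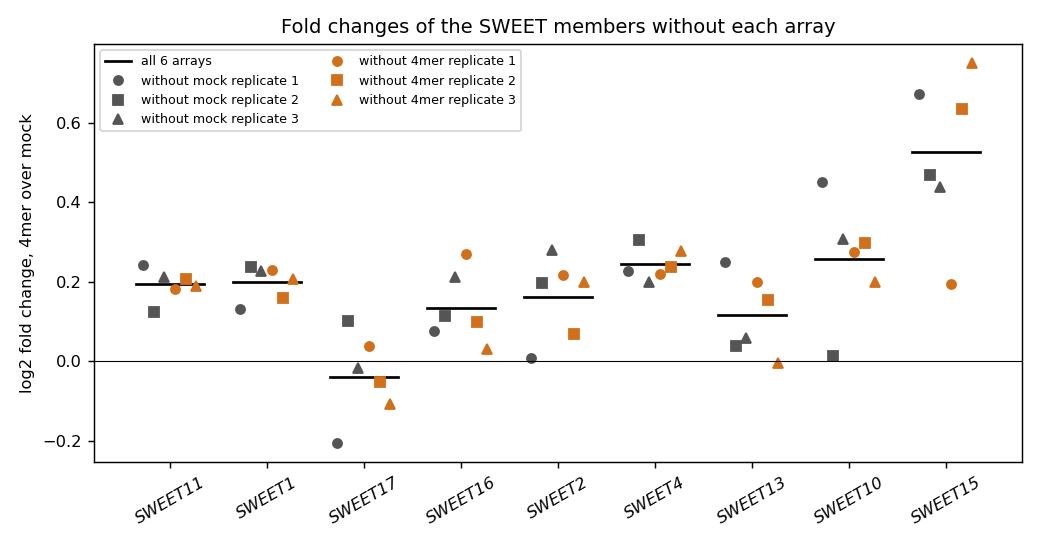
The log2 fold change of 4mer over mock (y axis) of each SWEET member (x axis) with all 6 arrays (black bar) and with each array left out (grey for mock, orange for 4mer, a symbol for each replicate). The values of *SWEET1*, *SWEET4* and *SWEET11* stay above 0.12, whereas those of *SWEET17* run from -0.21 to 0.10 and those of *SWEET15* from 0.19 to 0.75.

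The SWEET genes outside the list were all dim in whole seedlings. The brightest of them by the mean of all arrays was *SWEET6*, with 0.340 times the array median in mock and 0.403 in 4mer seedlings. Of these 7 genes 5 were higher and 2 lower with the 4mer, with a median log2 fold change of 0.13, and 0 had an adjusted or an unadjusted p under 0.05 in limma. No group of theirs was apart from the other. *SWEET9*, which is needed for nectar secretion, had a log2 fold change of 0.13, *SWEET3* of clade I one of 0.077, *SWEET14*, the close relative of *SWEET13*, one of 0.22, and *SWEET5*, listed as *AtVEX1* after its expression in the vegetative cell of pollen, one of 0.19. Their adjusted p-values lay between 0.733 and 0.950. With 1 array left out, the values ran from 0.0065 to 0.54 for *SWEET14*, from 0.057 to 0.39 for *SWEET5* and from 0.037 to 0.28 for *SWEET9*.

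Both genes with a negative value in this group rested on mock replicate 1. *SWEET7* was at 0.508 in that array, at 0.135 and 0.197 in the other mock arrays, and at 0.190, 0.166 and 0.170 in 4mer seedlings. *SWEET8*, also known as *RPG1* and needed for the pollen wall, was at 0.587 in mock replicate 1, and in all other arrays it lay between 0.290 and 0.317. The log2 fold changes of -0.44 for *SWEET7* and -0.31 for *SWEET8* became 0.10 and 0.014 without that array.

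The other measured genes of sugar transport and sucrose metabolism did not pass the test either. Of 65 listed genes, 16 were measured, 12 of them higher and 4 lower, with a median log2 fold change of 0.11. Of these 16, 0 passed limma's test (0.101% of all probe sets did). An unadjusted p under 0.05 was found for 2 of 16, where the share over all probe sets was 11.4%. None of the 9 listed *SUC* sucrose symporters, which take up the sucrose that SWEET proteins release, was among them. The platform annotation used here pairs no probe set with any of them alone. The study names a probe set for *SUC7* and lists that gene as induced by the 4mer, which was not examined here. Genes that the gene table leaves without a symbol are given by their locus.

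*TMT1*, a monosaccharide transporter of the vacuolar membrane, was at 7.72, 10.8 and 10.8 times the array median in mock and at 12.1, 11.3 and 12.1 in 4mer seedlings. All treated arrays were above all mock arrays, as in 7.86% of all probe sets, and mock replicate 1 was far below the others. Its log2 fold change was 0.30 (95% interval -0.010 to 0.61, adjusted p = 0.453 from limma) with all arrays. Without mock replicate 1 it was 0.14 (95% interval 0.020 to 0.26, adjusted p = 0.224 from limma). The interval of *TMT1* also lay above 0 with quantile normalization (0.030 to 0.66), and it held 0 with any 4mer array left out. *SFP2*, a sugar transporter of the ERD6-like group, had a log2 fold change of 0.34 (95% interval 0.0030 to 0.68, adjusted p = 0.436), which was 0.47 without mock replicate 1 (adjusted p = 0.1001) and 0.20 without mock replicate 2 (95% interval -0.11 to 0.51, adjusted p = 0.563). With quantile normalization the interval of *SFP2* held 0 (-0.0090 to 0.70). Of the 6 measured genes of this vacuolar and ERD6-like list 5 were higher and 1 was lower, with a median of 0.17.

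Among the 4 measured loci of the hexose symporter list 3 were higher and 1 lower, with a median of 0.052. AT5G26250 had a log2 fold change of 0.78 (95% interval -0.49 to 2.05). It was at 0.0495 in mock replicate 1 and between 0.165 and 0.243 in the other 5 arrays. Without mock replicate 1 its log2 fold change was 0.13, without mock replicate 2 it was 1.21, and no difference was left with the floor of 0.25. AT1G34580 had a log2 fold change of 0.10, and 0.028 to 0.21 with 1 array left out. In the polyol and inositol list, AT2G18480 had a log2 fold change of 0.48 (95% interval -0.69 to 1.66), which was 1.04 (0.088 to 1.99) without mock replicate 2, its brightest array, 0.12 without mock replicate 1 and -0.060 with the floor of 0.25. AT2G20780 had one of 0.048. With all arrays, no adjusted p in these lists was under 0.623.

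For the enzymes, the 2 measured genes of sucrose cleavage were *cwINV6*, a fructan exohydrolase, with a log2 fold change of 0.12, and AT1G62660 with -0.089. In the sucrose synthesis list, *SPS4F*, a sucrose phosphate synthase, was at 0.31 on the same log2 scale (adjusted p = 0.535 from limma), and at 0.18 to 0.44 with 1 array left out. Its 95% interval held 0 with all arrays (-0.089 to 0.71). The interval lay above 0 without mock replicate 1 (0.075 to 0.80, adjusted p = 0.210 from limma) and with a replicate block (0.023 to 0.60, adjusted p = 0.474). AT2G35840 of the same list was at 3.57, 2.48 and 2.42 in mock and at 1.83, 1.97 and 2.17 in 4mer seedlings. All treated arrays were below all mock arrays, as in 12.5% of all probe sets. Its log2 fold change was -0.48 (95% interval -0.84 to -0.12, adjusted p = 0.324 from limma), the smallest p among the sugar genes, and it was -0.30 without mock replicate 1.

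**Figure D5:**
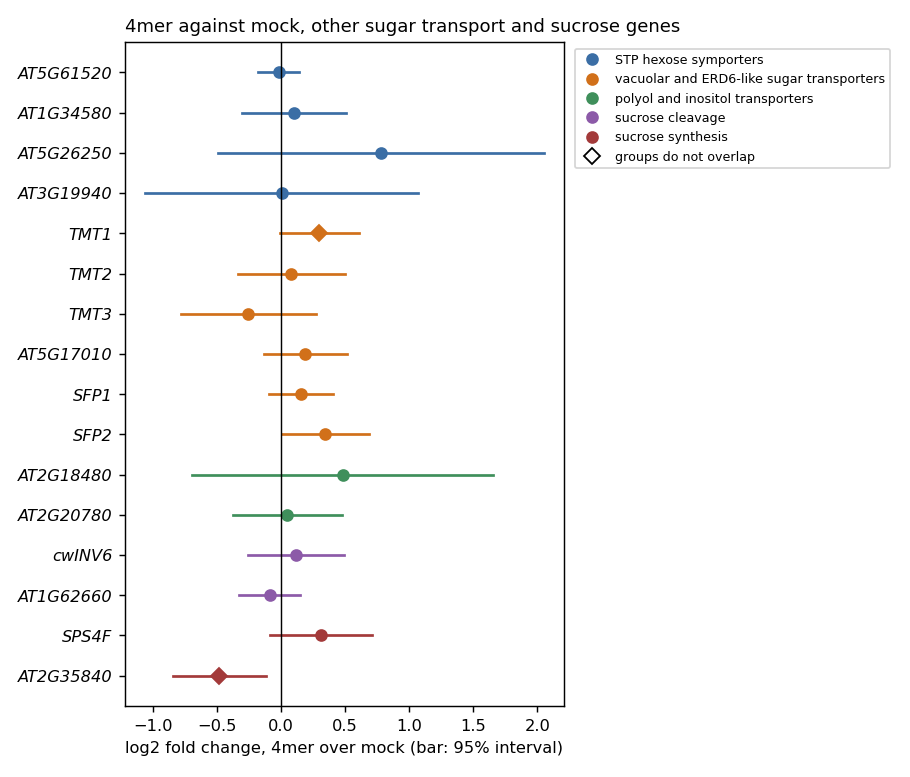
The log2 fold change of 4mer over mock (x axis) of the 16 measured sugar transport and sucrose genes outside the SWEET family, colored by list, each with its 95% interval from limma as a bar and a diamond where the groups do not overlap. The bar of AT2G35840 (-0.84 to -0.12) lies below 0, that of *SFP2* starts just above it, and all others hold 0.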

How the data were processed

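The authors quantified the scanned images in MicroArray Suite 5.0, which yields a signal for each probe set, and the deposited values are these intensities on a linear scale, 1 column for each of the 6 arrays. The scaling target, filters and detection calls are not given in the sources used here. Following the study's methods, a floor of 0.01 was applied (it touched 1 to 4 values per array) and each array was divided by its median. The fit to the log2 values used limma 3.58.1 (R 4.3.3) with lmFit and a variance trend in eBayes, and p-values were adjusted by Benjamini-Hochberg over the whole array. The methods name SAM without a threshold, so limma was used. The script was tested on simulated data. Figures were drawn with matplotlib 3.10.9.

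Of 22746 probe sets, 13513 pair with 1 gene in the platform annotation, 503 with several and 8730 are not listed. Loci were matched through the TAIR10.1 gene table. No sequences were used here.

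All members, all other measured SWEET genes and, of each sugar list, the 2 genes with the smallest p are named, each by its brightest probe set. Members and lists were chosen with earlier results of these data known. Results were recomputed with quantile normalization, without scaling between arrays, with a floor or an offset of 0.25, on only the 11373 brighter probe sets, without the variance trend, with a replicate block, with the methods' ratio to the median of the mock arrays, and with each array left out.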

Additional observations from a re-analysis of the deposited data

How the results depend on the processing

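The number of measured members that passed in limma was 0 under every alternative in which it was counted. This was 0 of 5 among the brighter probe sets and 0 of 9 elsewhere. Of 122 values of single members under an alternative, 3 had the opposite direction, all with 1 array left out: *SWEET13* without 4mer replicate 3 (-0.0053) and *SWEET17* without mock replicate 2 (0.10) or 4mer replicate 1 (0.037). The median log2 fold change of the members was 0.23 with no scaling between arrays, 0.14 with an offset of 0.25, 0.15 with the ratio to the median of the mock arrays, and 0.12 to 0.23 with 1 array left out. Only 5 members are among the brighter probe sets, so the other 4 have no value there.

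Of the other SWEET genes, *SWEET3* changed direction with normalized values below 0.25 set to 0.25 (-0.021), with the ratio (-0.19), without mock replicate 2 (-0.21) and without 4mer replicate 2 (-0.092), and ran up to 0.27 with 1 array left out. *SWEET14* changed direction with the floor of 0.25 (-0.033), *SWEET6* (-0.021) and *SWEET8* (0.0014) with the ratio, and *SWEET7* (0.10) and *SWEET8* (0.014) without mock replicate 1. With 1 array left out, *SWEET7* went down to -0.85 and *SWEET8* to -0.48. Of the sugar genes, AT2G18480 did so with the floor (-0.060), AT2G20780 without mock replicate 1 (-0.17), without 4mer replicate 3 (-0.0053) and with the ratio (-0.051), against a highest value of 0.18 with 1 array left out, and AT1G62660 without mock replicate 2 (0.014).

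Over all probe sets, 15 were called higher and 8 lower. The counts were 5 higher and 5 lower with the floor of 0.25, 35 and 21 among the brighter probe sets, and 0 and 2 without a variance trend. With 1 array left out they ran from 0 to 182 higher and from 0 to 156 lower, and both highest counts came without mock replicate 1. With the replicate block 0 were called in either direction, and the block changed no call of a member. Arrays of the same number did not deviate together from their group means (correlations -0.036, -0.0078 and -0.042). With 3 arrays per group, these values cannot settle whether arrays of the same number were handled as pairs. The cause of these differences was not tested.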
